A study of Homo sapiens with 12 samples.

Results

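The genes described here are 54 genes of double-strand break and interstrand crosslink repair, taken by symbol from a table of 20289 genes. They comprise 20 genes of homologous recombination, 8 of end joining, 16 of the Fanconi and crosslink pathway and 10 of checkpoint and break signalling. All 54 were found in the table and all 54 passed the filter on low counts, as did 12821 of the 20289 genes. They were measured by RNA sequencing of U251, an established human glioblastoma line, carried in 12 libraries of 4 groups with 3 libraries each. In the first group, called control DMSO here, cells that received a control hairpin lentivirus (shCtrl) were given the solvent DMSO. In the second, knockdown DMSO, cells that received a hairpin against CD44 (shCD44), a cell-surface hyaluronan receptor, were given DMSO. Control temozolomide and knockdown temozolomide were the same kinds of cells given 50 µM temozolomide, a DNA-methylating drug used against glioblastoma. Treatment lasted 24 h in every group, and the series' design text gives all the cells a control or a CD44 hairpin by lentivirus, with no uninfected culture. The titles write NC for the treated controls and shCtrl for the untreated ones, and both are labelled as wild type. They were read as cells with the same control hairpin, and the drug in control cells, knockdown under temozolomide and the difference of responses rest on that reading. The labels name 1 CD44 hairpin, and nothing in them tells if a group's 3 libraries came from separate cultures, so the p-values measure only the spread between these libraries, which may be technical. Libraries are named below by group and replicate number.

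Cells repair a broken chromosome chiefly by homologous recombination, which cuts back the ends, loads a strand-exchange recombinase with the help of BRCA1, BRCA2 and their partners, and copies an intact sister, or by end joining, which holds the ends with the Ku dimer and the kinase DNA-PK and ligates them. Interstrand crosslinks are opened by the Fanconi pathway, whose core complex marks the FANCD2-FANCI clamp with ubiquitin so that nucleases can cut beside the lesion. The kinases ATM and ATR and their partners signal the damage to the cell cycle. In glioblastoma these pathways are studied because the guanine lesions that temozolomide leaves can be turned into strand breaks when cells replicate past them.

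The libraries held 13506946 to 24757977 estimated counts, and a floor of 3 counts corresponded to 0.121 to 0.222 CPM (counts per 1000000). CD44 itself was at 1043 to 1127 CPM in control DMSO and 419 to 421 CPM in knockdown DMSO, and at 804 to 851 CPM in control temozolomide and 319.8 to 333 CPM in knockdown temozolomide. Of 8 glioma and astroglial markers, SOX2, SOX9, NES, VIM and FABP7 were detected, GFAP did not exceed 1.83 CPM, S100B did not exceed 0.48 CPM, and OLIG2 was at 0 in 11 of the 12 libraries. Of 12 markers of other cell types, the epithelial EPCAM and CDH1, the leukocyte PTPRC and CD3E, the endothelial PECAM1 and VWF and the neuronal RBFOX3 and SNAP25 were under 1 CPM in every library, with CD3E at 0 in all 12. The other markers were detected, CLDN4 at 31.1 to 47.1, CD68 at 13.4 to 27.1, CDH5 at 12.2 to 46.2 and SYT1 at 3.57 to 10.0 CPM. Several of these markers differed between the compared groups (log2 fold changes, edgeR, called at an adjusted p below 0.05). Knockdown raised SYT1 by 1.14 under DMSO and 1.06 under temozolomide and CD68 by 0.62 and 0.77, and CDH5 fell by 0.67 and 0.77. With the drug CDH5 fell by 1.04 in control and 1.14 in knockdown cells and CLDN4 by 0.49 and 0.28. CLDN4 also rose with knockdown under temozolomide, by 0.18, as did PECAM1, at under 1 CPM. Of the 6 glioma markers that were tested, SOX9, NES, VIM and FABP7 fell with the drug in both kinds of cells, and the median of the 6 was -0.36 in each. Knockdown raised NES and VIM and lowered SOX2 under both treatments. The part of these changes in the members' results was not tested. The libraries differed in a tilt with GC content, measured as the median deviation of genes above 60% GC minus that of genes below 40% GC on the log2 scale: it was 0.068 to 0.217 in control DMSO, -0.0844 to -0.0253 in knockdown DMSO, -0.134 to 0.04 in control temozolomide and -0.117 to 0.0817 in knockdown temozolomide. The kit is not stated to keep the strand, and 14 members share at least 500 exonic bases with another annotated gene, 9 of them on the opposite strand, so reads of such pairs cannot be told apart. These members are RAD51D, RAD54L, RAD54B, XRCC3, RAD50, NHEJ1, FANCA, ERCC1, ERCC4, MUS81, EME1, ATRIP, TP53BP1 and MDC1, and their values carry that uncertainty wherever they appear below. Overlaps of any length were found for 30 members, and 18 had a count that was not whole in some library. With overlaps under 500 bases, FANCI (458, with POLG), FANCL (452, with VRK2) and CHEK2 (301, with HSCB) had such counts in all 12 libraries, so the uncertainty extends to them.

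The 54 genes spanned a wide range of levels. On the FPKM scale, which divides by transcript length and so allows levels of different genes to be compared, the members' means in control DMSO ran from 0.597 to 300.1 with a median of 12.5. The Ku subunits stood highest, with XRCC6 at 300.1 ± 6.99 FPKM and XRCC5 at 167 ± 1.3 FPKM (SD, n = 3), followed by PRKDC, the catalytic subunit of DNA-PK, at 87.0 ± 4.32 FPKM. These levels of XRCC6, XRCC5 and PRKDC did not overlap each other or those of any other member. The next in order were RBBP8 at 45.3 ± 1.1, RAD51AP1 at 43.3 ± 0.925, ERCC1 at 42.5 ± 1.85 and CHEK1 at 41.7 ± 1.59 FPKM. The RBBP8 libraries lay just above those of RAD51AP1, and the libraries of RAD51AP1, ERCC1 and CHEK1 overlapped. The other end-joining genes were low: the ligase LIG4 was at 4.16 ± 0.540 FPKM and its partner XRCC4 at 7.94 ± 0.499 FPKM, and the median of the 8 end-joining genes was 7.95 FPKM. The medians of the homologous recombination, checkpoint and Fanconi genes were 16.6, 14.4 and 11.1 FPKM. The lowest member was FANCF, a core-complex subunit, at 0.597 ± 0.153 FPKM, and its libraries lay below those of RAD51B at 2.51 ± 1.05 and FANCM at 2.99 ± 0.562 FPKM, which overlapped.

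**Figure D1:**
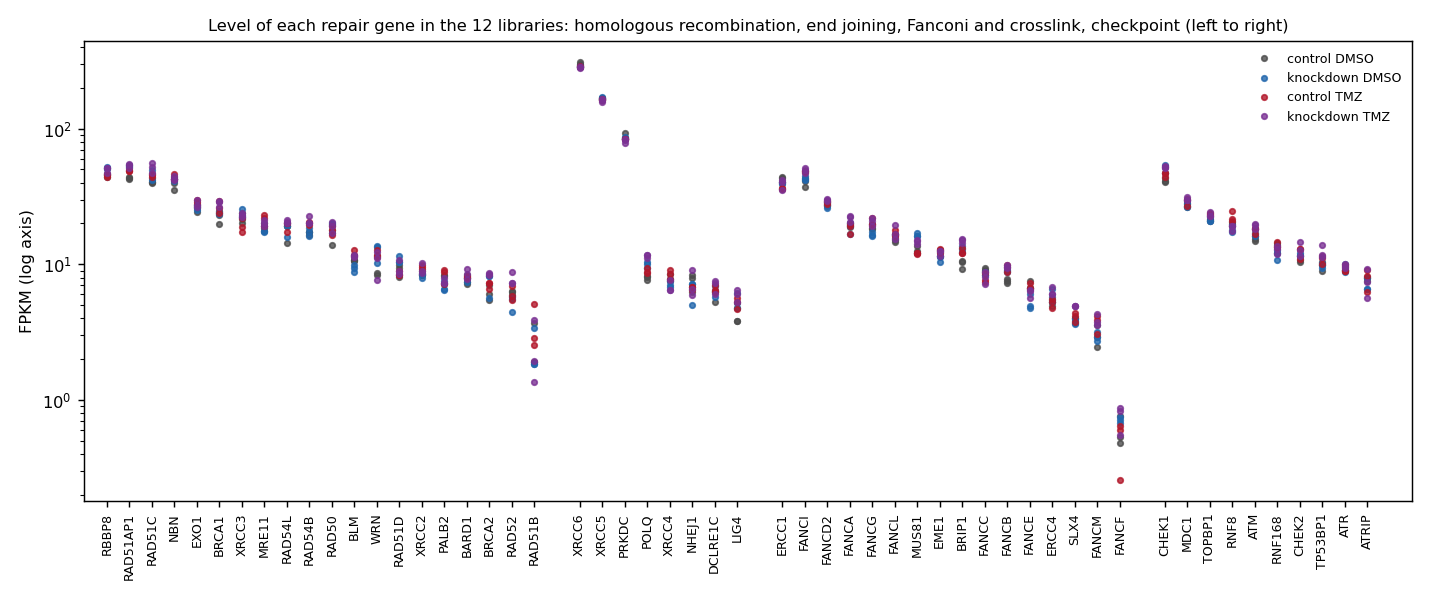
FPKM of each of the 54 repair genes (horizontal axis, grouped by class) in the 12 libraries (points, coloured by group; log axis). XRCC6, XRCC5 and PRKDC stand above the other members in all 4 groups, and FANCF stands lowest.

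CD44 knockdown changed some members of each class in both directions, by small amounts. Under DMSO, 13 of the 54 genes were higher and 8 lower in knockdown than in control cells at an edgeR adjusted p under 0.05, 38.9% of the members, where 42.6% of all 12821 tested genes were called (21.1% higher and 21.4% lower). Under temozolomide 12 members were higher and 4 lower, 29.6% of the members against 42.3% of all tested genes (22% higher and 20.3% lower). The share of members called was therefore near or below the background in both comparisons. The members' median log2 fold change was -0.02 under DMSO and 0.01 under temozolomide, beside 0.00 and 0.01 over all tested genes, and the members' values ran from -0.44 to 0.32 under DMSO and from -0.51 to 0.51 under temozolomide. In these bulk libraries a change in the share of cells that make an RNA and a change in RNA per cell cannot be told apart. With library totals in place of TMM factors the split under DMSO was 15 higher and 4 lower, and with the GC correction it was 8 higher and 15 lower. These were 35.2% and 42.6% of the members, beside 43.3% and 43.2% of all genes in the same fits. Without knockdown DMSO 2, 5 members were called lower under DMSO in place of 8. In that fit 31.5% of the members and 37.4% of all genes were called in either direction.

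By class, homologous recombination genes were 6 higher and 1 lower under DMSO and 5 higher and 1 lower under temozolomide, of 20. Fanconi genes were 4 higher and 4 lower under DMSO and 5 higher and 0 lower under temozolomide, of 16. End-joining genes were 2 higher and 2 lower, then 1 higher and 1 lower, of 8. Checkpoint genes were 1 higher and 1 lower, then 1 higher and 2 lower, of 10. The called share under DMSO was 35%, 50%, 50% and 20% in that order, beside 42.6% of all tested genes. Under temozolomide it was 30%, 31.25%, 25% and 30%, beside 42.3% of all tested genes. The knockdown comparisons under DMSO and under temozolomide use different libraries, and 42 of the 54 members had the same sign in both (Pearson r = 0.62, Spearman rho = 0.73 across 54 genes, which are not independent replicates). Of 28 members called in at least 1 of them, 9 were called in both with the same sign and 0 with opposite signs. The matching counts and correlation over all tested genes were not made, so this agreement has no background to be read against. BRCA2, RAD51AP1, RBBP8, POLQ, BRIP1, ERCC4, MUS81 and CHEK1 rose in both, and RNF168 fell in both.

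**Figure D2:**
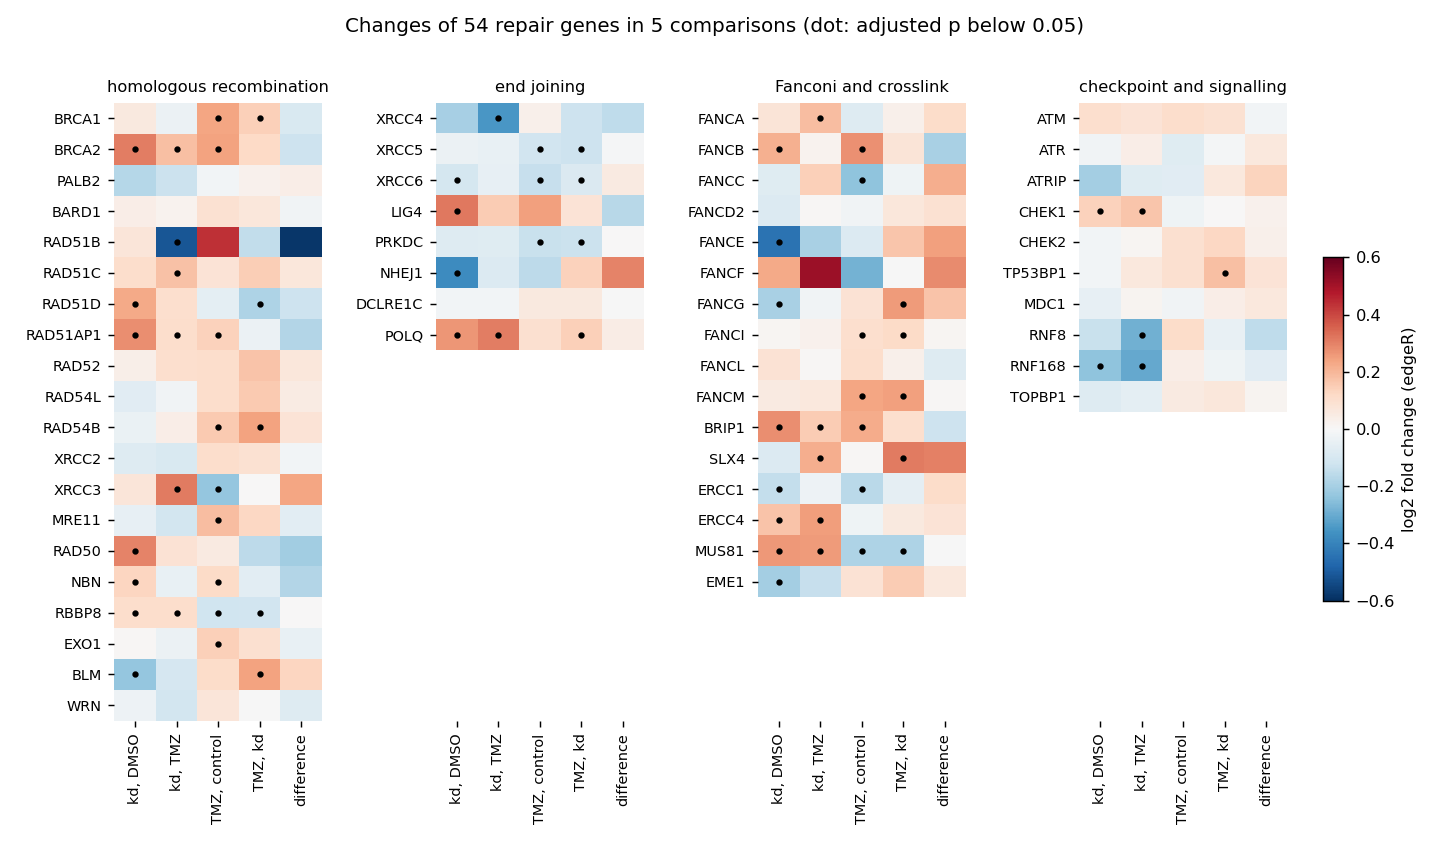
Log2 fold change (colour) of each of the 54 repair genes (rows, by class) in the 5 comparisons (columns), with a dot where the edgeR adjusted p was under 0.05. Calls lie in both directions in each comparison of 2 groups, and the difference column has 0 dots.

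**Figure D3:**
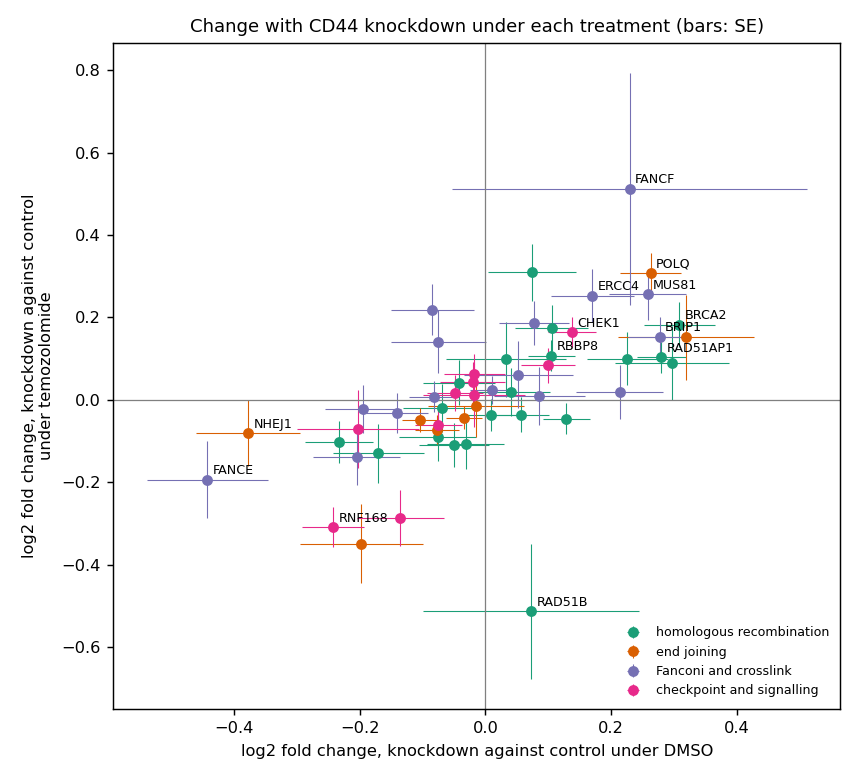
Log2 fold change with CD44 knockdown under DMSO (horizontal axis) and under temozolomide (vertical axis) for each of the 54 repair genes, coloured by class, with SE bars. Names mark the 9 members called in both, and also RAD51B, FANCE, NHEJ1 and FANCF, which were not called in both. Most points lie in the quadrants of like sign, and POLQ lies far to the upper right while RNF168 lies to the lower left.

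Temozolomide also moved members both ways. In control cells 11 members rose and 8 fell with the drug, 35.2% of the 54 against 27.5% of all tested genes (11.7% higher and 15.8% lower). In knockdown cells 9 rose and 6 fell, 27.8% against 22.3% of all tested genes (9.05% higher and 13.2% lower). The homologous recombination genes were 7 higher and 2 lower in control cells and 3 higher and 2 lower in knockdown cells, the Fanconi genes 4 higher and 3 lower, then 4 higher and 1 lower, and the checkpoint genes 0 and 0, then 1 higher and 0 lower. Of the 8 end-joining genes 3 fell in control cells with 0 rising, and 3 fell with 1 rising in knockdown cells. The 3 that fell were XRCC5, XRCC6 and PRKDC in both. For recombination, Fanconi, checkpoint and end joining the called share was 45%, 43.75%, 0% and 37.5% in control cells. It was 25%, 31.25%, 10% and 50% in knockdown cells, where all tested genes had 22.3%, beside 27.5% in control cells. The members' median log2 fold change was 0.08 in control and 0.07 in knockdown cells, beside 0.00 over all tested genes in each. With the GC correction described further on, 2 members rose and 6 fell in control cells, 14.8% of the 54 against 24.6% of all genes in that fit, so the members' share lay below that of all genes and not above it, and 1 of the 11 rises and 5 of the 8 falls were kept. In knockdown cells the corrected share was 33.3% against 25.2%. The counts also rest on the scaling: with library totals alone the split was 21 higher and 0 lower in control cells and 19 higher and 0 lower in knockdown cells, a setting that moved the median of all genes to 0.06 and 0.07. The members' share was then 38.9% in control and 35.2% in knockdown cells, beside 32.5% and 28.2% of all genes. In control cells the 11 rises became 6 without control DMSO 3, control temozolomide 2 or control temozolomide 3, and the 8 falls became 5 without control DMSO 1, control DMSO 2 or control temozolomide 2 and 4 without control temozolomide 3. The share of all genes called fell as well. Without control DMSO 1, 2 or 3 it was 20.7%, 26.2% and 22.7%, beside 24.1%, 31.5% and 22.2% of the members. Without control temozolomide 2 or 3 it was 20.9% and 20.8%, beside 20.4% and 18.5% of the members. In knockdown cells the 9 rises became 4 without knockdown DMSO 2 or knockdown temozolomide 2, and the 6 falls became 3 without knockdown DMSO 3, 2 without knockdown DMSO 1 or knockdown temozolomide 2, and 1 without knockdown temozolomide 1. Without knockdown DMSO 1, 2 or 3 the share of all genes was 16.7%, 16.4% and 17.1%, beside 14.8%, 14.8% and 20.4% of the members. Without knockdown temozolomide 1 or 2 it was 18.3% and 16.2%, beside 20.4% and 11.1% of the members. The temozolomide comparisons share no library with each other, and 36 of the 54 members had the same sign in both (Pearson r = 0.36, Spearman rho = 0.44 across 54 genes), with 9 called in both in the same direction. Here too the matching values over all tested genes were not made.

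The promoters below belong to the members with the smallest p-values among those that rose with knockdown under DMSO, the comparison with the most members called, and show the sequence upstream of genes that moved together. They are the bases of RefSeq's GRCh38.p14 promoter windows that lie before the start site, less any base within an annotated exon of the gene, written in the gene's direction. Capitals mark matches on either strand to TTTGAA (the CHR element of G2 genes, reverse TTCAAA) or CCAAT (reverse ATTGG).
RAD51AP1 promoter, chr12:4538640-4538797, plus strand: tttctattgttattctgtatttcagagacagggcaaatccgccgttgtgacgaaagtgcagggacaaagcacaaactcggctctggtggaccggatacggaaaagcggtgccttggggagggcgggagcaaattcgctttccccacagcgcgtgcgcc
BRIP1 promoter, chr17:61863529-61863778, minus strand: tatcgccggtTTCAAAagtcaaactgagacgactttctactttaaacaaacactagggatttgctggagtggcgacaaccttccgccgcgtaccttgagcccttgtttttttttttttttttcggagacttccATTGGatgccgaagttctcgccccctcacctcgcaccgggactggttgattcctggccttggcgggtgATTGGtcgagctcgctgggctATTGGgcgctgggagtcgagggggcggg
POLQ promoter, chr3:121546007-121546238, minus strand: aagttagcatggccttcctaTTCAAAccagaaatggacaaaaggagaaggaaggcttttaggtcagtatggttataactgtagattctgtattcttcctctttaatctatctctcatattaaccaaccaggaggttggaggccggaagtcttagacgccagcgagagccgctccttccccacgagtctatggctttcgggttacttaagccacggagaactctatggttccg
BRCA2 promoter, chr13:32315258-32315473, plus strand: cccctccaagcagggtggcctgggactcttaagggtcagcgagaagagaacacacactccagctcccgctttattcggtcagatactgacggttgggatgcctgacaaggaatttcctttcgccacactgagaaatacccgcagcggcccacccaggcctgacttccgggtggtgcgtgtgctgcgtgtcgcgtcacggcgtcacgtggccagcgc
BRIP1's stretch held 1 match to TTTGAA and 3 to CCAAT, POLQ's held 1 to TTTGAA, and BRCA2's and that of RAD51AP1 held 0; no matches of different motifs shared a base there, and outside the bases shown the RAD51AP1 window held 1 match each to CCAAT and to TTCCCGC, an E2F-type motif (reverse GCGGGAA). Over the 250 bases upstream, entries were matched for 48 of the 54 members. CCAAT was found in 20 of the 48 (41.7%) and in 33% of all 27305 promoters of that length, TTCCCGC in 8 of the 48 (16.7%) and in 5.59% of all, TTTGAA in 5 (10.4%) against 13.6%, and the palindromic NRF1 motif in 0 against 1.13%. The 27305 promoters were not limited to tested genes, while all members were tested, so the shares rest on unlike sets. A match describes these letters only.

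Per-library levels below are CPM scaled by TMM factors, and a change is called at an edgeR quasi-likelihood adjusted p under 0.05 over all tested genes. Each call was set against 24 other settings, which comprise other scalings, filters and tools, a correction for GC content, limma fits to log2 FPKM and the removal of each of the 12 libraries. Where a call was lost, the values in parentheses are the adjusted p without the named libraries, as a range for 3 or more. Each knockdown comparison shares the libraries of a group with each drug comparison, so calls of a gene in both are not independent. Knockdown under DMSO shares control DMSO with the drug in control cells and knockdown DMSO with the drug in knockdown cells.

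Among the genes that load and assist the recombinase, RAD51AP1 and BRCA2 rose with knockdown under DMSO and with temozolomide in control cells. Both comparisons use the same control DMSO libraries, so these rises are not independent. RAD51AP1 binds the recombinase and stimulates strand pairing. It was at 69.9, 69.4 and 67.8 CPM in control DMSO and 85.0, 82.5 and 83.9 CPM in knockdown DMSO. With temozolomide it was at 74.6, 76.6 and 77.2 CPM in control and 81.4, 80.8 and 83.1 CPM in knockdown cells. All 9 other libraries lay above the 3 of control DMSO, and the untreated knockdown libraries did not overlap the untreated controls (log2 fold change 0.28 ± 0.04 (SE), edgeR adjusted p = 5.9e-06). The difference under temozolomide was 0.10 ± 0.04 (adjusted p = 0.0321), and the drug raised the gene in control cells by 0.14 ± 0.04 (adjusted p = 0.00986). The call under DMSO was kept in all 24 other settings. The call under temozolomide was lost without control DMSO 1, knockdown DMSO 2 or 3, control temozolomide 1 or 2 or knockdown temozolomide 1, 2 or 3 (0.0545 to 0.116), with relative log expression factors, in DESeq2, without the low-count filter and in a fit of the compared groups alone. That for the drug in control cells was lost with the GC correction.

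BRCA2, which delivers the recombinase to resected DNA, was at 58.4, 65.3 and 55.3 CPM in control DMSO and 67.8, 75.6 and 77.4 CPM in knockdown DMSO, and at 69.9, 71.1 and 70.6 CPM in control temozolomide and 78.5, 79.2 and 82.7 CPM in knockdown temozolomide. Control DMSO was the lowest group and knockdown temozolomide the highest, and the compared groups did not overlap. It rose with knockdown under DMSO (log2 fold change 0.31 ± 0.06 (SE), edgeR adjusted p = 1.6e-04), with knockdown under temozolomide by 0.18 ± 0.05 (adjusted p = 0.00960) and with the drug in control cells by 0.24 ± 0.06 (adjusted p = 0.00275); the drug's change in knockdown cells was 0.12 ± 0.05 (adjusted p = 0.132). The call under DMSO was lost in the FPKM fits. The knockdown call under temozolomide was lost in the FPKM fits. The drug call was lost in the FPKM fits and with the GC correction. BRCA1, a ubiquitin ligase that promotes resection and loading, was at 95.7, 96.8 and 87.1 CPM in control DMSO, 94.7, 93.9 and 102 CPM in knockdown DMSO, 109.6, 110.4 and 109 CPM in control temozolomide and 105, 107 and 109.8 CPM in knockdown temozolomide. Every treated library was above every untreated one, while control and knockdown overlapped under both treatments. BRCA1 rose with temozolomide in control cells (log2 fold change 0.24 ± 0.04 (SE), edgeR adjusted p = 3.7e-04) and in knockdown cells by 0.14 ± 0.04 (adjusted p = 0.0226), and its knockdown changes were 0.06 ± 0.04 (adjusted p = 0.321) and -0.04 ± 0.04 (adjusted p = 0.537). The call in control cells was lost in the FPKM fits. That in knockdown cells was lost without knockdown DMSO 1 or 2 or knockdown temozolomide 2 or 3 (0.0535 to 0.121), in the FPKM fits and in DESeq2. Its ligase partner BARD1 and PALB2, the bridge between BRCA1 and BRCA2, were called in 0 of the 4 comparisons, with log2 fold changes from -0.17 to 0.09.

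The recombinase paralogs, which form small complexes that stabilise the filament, were called in different comparisons. XRCC3 was at 33.0, 29.4 and 30.9 CPM in control DMSO and 33.8, 33.1 and 31.4 CPM in knockdown DMSO, which overlapped. It was at 29.2, 25.6 and 23.9 CPM in control temozolomide and 32.9, 32.7 and 32.6 CPM in knockdown temozolomide, where the knockdown libraries were all higher (log2 fold change 0.31 ± 0.07 (SE), edgeR adjusted p = 0.00108). XRCC3 fell with the drug in control cells by 0.23 ± 0.07 (adjusted p = 0.0165) on the log2 scale, and its value in knockdown cells was 0.00 ± 0.07 (adjusted p = 0.991). The knockdown call was lost in the unfiltered FPKM fit. Its call for the drug was lost without control DMSO 1 or control temozolomide 2 or 3 (0.0642 to 0.102), in the FPKM fits, with the GC correction and with library totals alone. It shares exonic bases with KLC1 on the other strand.

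RAD51B, the second lowest member by FPKM, was at 3.09, 3.25 and 3.70 CPM in control DMSO, 3.46, 3.5 and 3.61 CPM in knockdown DMSO, 4.21, 4.48 and 5.03 CPM in control temozolomide and 3.71, 3.20 and 2.58 CPM in knockdown temozolomide. Its treated knockdown libraries lay below the treated controls (log2 fold change -0.51 ± 0.16 (SE), edgeR adjusted p = 0.0151), while the untreated groups overlapped. The call was lost without control temozolomide 3 or knockdown temozolomide 3 (0.0624 and 0.0685) and in the FPKM fits. RAD51D was at 26.7, 28.0 and 30.3 CPM in control DMSO and 33.5, 32.9 and 33.1 CPM in knockdown DMSO, and at 28.0, 26.4 and 27.2 CPM and 28.4, 27.8 and 31.9 CPM in the treated control and knockdown groups. The untreated knockdown libraries were the highest, and the gene rose with knockdown under DMSO (log2 fold change 0.23 ± 0.06 (SE), edgeR adjusted p = 0.00757) and fell with the drug in knockdown cells by 0.18 ± 0.06 (adjusted p = 0.0434) on the log2 scale. The first call was lost in the FPKM fits. The second was lost without knockdown DMSO 1, 2 or 3, control temozolomide 2 or 3 or knockdown temozolomide 1 or 2 (0.0520 to 0.196), in the FPKM fits, with library totals alone and in DESeq2. RAD51C rose with knockdown under temozolomide by 0.17 ± 0.06 (adjusted p = 0.0160). That call was lost without control temozolomide 3 or knockdown temozolomide 3 (0.0678 and 0.111), in the unfiltered FPKM fit and in DESeq2. XRCC2, and RAD52, the annealing factor, were called in 0 of the 4 comparisons.

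RAD54B and RAD54L are translocases that help the recombinase find and pair with its template. RAD54B was at 52.6, 52.6 and 49.0 CPM in control DMSO, 52.3, 50.5 and 47.2 CPM in knockdown DMSO, 56.6, 57.9 and 57.5 CPM in control temozolomide and 56.6, 56.4 and 64.7 CPM in knockdown temozolomide. All 6 treated libraries were above all 6 untreated ones. It rose with the drug in knockdown cells (log2 fold change 0.24 ± 0.06 (SE), edgeR adjusted p = 0.00364) and in control cells by 0.16 ± 0.06 (adjusted p = 0.0387). The call in knockdown cells was kept in all 24 other settings. That in control cells was lost without control DMSO 1 or 3 or control temozolomide 1, 2 or 3 (0.0537 to 0.154), with the GC correction and in DESeq2. Its exons share bases with FSBP on the same strand. RAD54L was called in 0 of the 4 comparisons, with a change of 0.15 ± 0.06 (adjusted p = 0.0725) for the drug in knockdown cells.

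Of the genes that sense and cut back broken ends, RBBP8, which activates the MRE11 nuclease, was called in all 4 comparisons. It was at 146, 145 and 144 CPM in control DMSO and 157, 153 and 158 CPM in knockdown DMSO. With temozolomide it was at 137, 129 and 135 CPM in control and 144, 139 and 149 CPM in knockdown cells. The compared groups did not overlap: knockdown was above control under each treatment, and each treated group was below its untreated partner. It rose with knockdown by 0.10 ± 0.04 (adjusted p = 0.0260) under DMSO and 0.11 ± 0.04 (adjusted p = 0.0225) under temozolomide, and the drug's changes were -0.12 ± 0.04 (adjusted p = 0.0204) in control and -0.12 ± 0.04 (adjusted p = 0.0271) in knockdown cells. The knockdown call under DMSO was lost without control DMSO 3 or knockdown DMSO 1 or 3 (0.0665 to 0.0818) and with the GC correction. The knockdown call under temozolomide was lost without control temozolomide 2 or knockdown temozolomide 1 or 3 (0.0539 to 0.121), in DESeq2, without the low-count filter and in a fit of the compared groups alone. The drug call in control cells was lost without control DMSO 1 or control temozolomide 2 (0.0810 and 0.109), in the FPKM fits and with library totals alone. The drug call in knockdown cells was lost without knockdown DMSO 1 or 3 or knockdown temozolomide 1 or 2 (0.0544 to 0.161), in the FPKM fits and with library totals alone.

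The 3 subunits of the complex that first binds ends, MRE11, RAD50 and NBN, were not called together in any knockdown comparison. Under DMSO NBN rose with knockdown by 0.13 ± 0.04 (adjusted p = 0.00851) and RAD50 by 0.30 ± 0.09 (adjusted p = 0.0115), while the MRE11 change was -0.05 ± 0.06 (adjusted p = 0.505). The RAD50 libraries of the groups compared overlapped, and control DMSO 1 was its lowest library, at 56.4 CPM beside 78.9 and 66.5 CPM in the other controls. The RAD50 call was lost without control DMSO 1 or knockdown DMSO 3 (0.0964 and 0.0616), in the unfiltered FPKM fit and in DESeq2. The NBN call was lost without control DMSO 3 (0.0665), in the FPKM fits and with the GC correction. With the drug in control cells MRE11 rose by 0.18 ± 0.05 (adjusted p = 0.0142) and NBN by 0.11 ± 0.04 (adjusted p = 0.0274). The MRE11 call was lost without control DMSO 1 or 3 or control temozolomide 2 or 3 (0.0581 to 0.0823), in the FPKM fits and with the GC correction. This NBN call was lost without control DMSO 3 or control temozolomide 1, 2 or 3 (0.0514 to 0.156), in the FPKM fits and with the GC correction. EXO1, the exonuclease of long-range resection, was at 65.9, 67.9 and 66.6 CPM in control DMSO, 68.2, 67.4 and 66.2 CPM in knockdown DMSO, 76.0, 72.2 and 72.5 CPM in control temozolomide and 71.2, 72.2 and 72.0 CPM in knockdown temozolomide. All its treated libraries were above all its untreated ones, and it rose with the drug in control cells (log2 fold change 0.14 ± 0.04 (SE), edgeR adjusted p = 0.0114), with 0.09 ± 0.04 (adjusted p = 0.0987) in knockdown cells. The EXO1 call was lost without control temozolomide 1 (0.0616), in the FPKM fits and with the GC correction.

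BLM, a RecQ helicase that resects ends and dissolves joined intermediates, was at 49.2, 50.0 and 50.7 CPM in control DMSO and 39.5, 45.0 and 42.9 CPM in knockdown DMSO. It was at 57.0, 52.0 and 52.5 CPM in control temozolomide and 49.3, 50.8 and 50.7 CPM in knockdown temozolomide. The untreated knockdown libraries were the lowest of the 12, and the knockdown groups did not overlap each other. BLM fell with knockdown under DMSO (log2 fold change -0.23 ± 0.05 (SE), edgeR adjusted p = 0.00147) and rose with the drug in knockdown cells by 0.24 ± 0.05 (adjusted p = 0.00255); the changes under temozolomide and in control cells were -0.10 ± 0.05 (adjusted p = 0.118) and 0.11 ± 0.05 (adjusted p = 0.121). Both calls were kept in all 24 other settings. WRN, the related helicase, was called in 0 of the 4 comparisons, with log2 fold changes from -0.11 to 0.07.

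**Figure D4:**
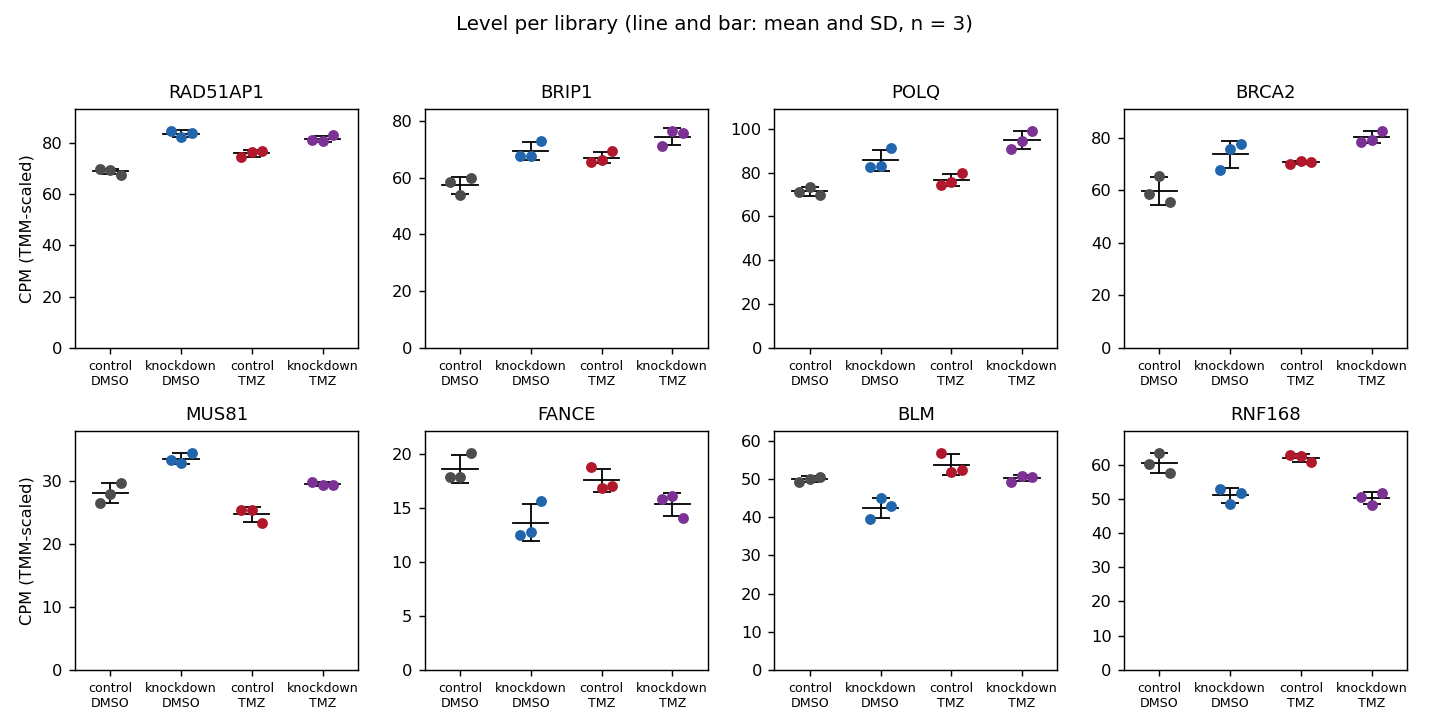
CPM of 8 repair genes in each library (points) of the 4 groups, with the mean and SD of the 3 libraries (line and bar) on axes that start at 0. RAD51AP1, BRIP1, POLQ, BRCA2 and MUS81 are higher and RNF168 lower with knockdown under both treatments, while FANCE and BLM are lowest in knockdown DMSO.

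In end joining, the Ku subunits and PRKDC, the most abundant members, fell with temozolomide by small amounts, and POLQ rose with knockdown. XRCC6, the smaller Ku subunit, was at 676, 649 and 660.0 CPM in control DMSO, 617, 621 and 609.6 CPM in knockdown DMSO, 608, 594 and 601 CPM in control temozolomide and 581, 587 and 574 CPM in knockdown temozolomide. The 4 groups formed a descending series in that order without overlap. XRCC6 fell with knockdown under DMSO (log2 fold change -0.10 ± 0.03 (SE), edgeR adjusted p = 0.00606), and its drug changes were -0.14 ± 0.03 (adjusted p = 0.00105) in control and -0.09 ± 0.03 (adjusted p = 0.0379) in knockdown cells. XRCC5, the larger subunit, was at 587, 589.5 and 579 CPM in control DMSO, 564, 581 and 569 CPM in knockdown DMSO, 540.2, 543 and 538 CPM in control temozolomide and 513, 533 and 528 CPM in knockdown temozolomide. All treated libraries lay below all untreated ones, with changes of -0.12 ± 0.03 (adjusted p = 0.00496) in control and -0.12 ± 0.03 (adjusted p = 0.00390) in knockdown cells, and knockdown gave -0.03 ± 0.03 (adjusted p = 0.361) under DMSO. PRKDC was at 1188, 1282 and 1148 CPM in control DMSO, 1125, 1152 and 1150.0 CPM in knockdown DMSO, 1099, 1102 and 1094 CPM in control temozolomide and 1012, 1074 and 1046 CPM in knockdown temozolomide. It fell with the drug in both backgrounds, by 0.13 ± 0.04 (adjusted p = 0.00654) and 0.13 ± 0.04 (adjusted p = 0.0108) on the log2 scale, and the knockdown groups overlapped the controls under DMSO but not under temozolomide, where the change was -0.07 ± 0.04 (adjusted p = 0.102).

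The relative log expression factors kept all of these calls, and with library totals alone and in the FPKM fits, which moved the median of all genes upward, the drug calls were lost while the fold changes stayed below 0. With library totals alone the log2 fold changes in control and knockdown cells were -0.05 and -0.06 for XRCC5, -0.07 and -0.02 for XRCC6 and -0.07 and -0.07 for PRKDC, beside medians of 0.06 and 0.07 over all genes. The XRCC6 call in control cells was lost in the FPKM fits and with library totals alone. That in knockdown cells was lost without knockdown DMSO 1 or 2 or knockdown temozolomide 1, 2 or 3 (0.0659 to 0.106), in the FPKM fits, with library totals alone and without the low-count filter. Its knockdown call under DMSO was lost in the FPKM fits and with library totals alone. The XRCC5 call in control cells was lost in the FPKM fits and with library totals alone. The XRCC5 call in knockdown cells was lost in the FPKM fits and with library totals alone. The PRKDC call in control cells was lost without control DMSO 2 (0.0569), in the FPKM fits and with library totals alone. The PRKDC call in knockdown cells was lost without knockdown temozolomide 1 (0.0526), in the FPKM fits and with library totals alone. On the FPKM scale XRCC5 was at 167 ± 1.3 in control DMSO and 162 ± 1.68 in control temozolomide, and PRKDC at 87.0 ± 4.32 and 83.2 ± 0.130 (SD, n = 3).

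POLQ, the polymerase of microhomology-mediated joining, was at 71.3, 73.7 and 69.7 CPM in control DMSO and 82.7, 83.2 and 91.2 CPM in knockdown DMSO. With temozolomide it was at 74.5, 75.7 and 79.7 CPM in control and 91.1, 94.4 and 99.3 CPM in knockdown cells. The knockdown libraries were above the controls under each treatment, and the treated knockdown group reached the highest levels. POLQ rose with knockdown under DMSO (log2 fold change 0.26 ± 0.05 (SE), edgeR adjusted p = 1.6e-04) and under temozolomide by 0.31 ± 0.05 (adjusted p = 1.7e-05), and with the drug in knockdown cells by 0.14 ± 0.05 (adjusted p = 0.0319), where the groups overlapped. Both knockdown calls were kept in all 24 other settings. The drug call was lost without control DMSO 1, knockdown DMSO 1 or 2 or knockdown temozolomide 2 or 3 (0.0502 to 0.150) and in DESeq2.

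NHEJ1, which bridges the ends for the ligase, was at 22.8, 22.7 and 23.9 CPM in control DMSO and 18.2, 18.7 and 16.6 CPM in knockdown DMSO, and at 21.5, 20.7 and 19.98 CPM and 21.7, 19.6 and 17.4 CPM in the treated control and knockdown groups. It fell with knockdown under DMSO (log2 fold change -0.38 ± 0.08 (SE), edgeR adjusted p = 8.2e-04), while the treated groups overlapped. The call was lost in the FPKM fits. XRCC4, the scaffold of the ligase LIG4, was at 13.9, 12.4 and 12.9 CPM in control DMSO, 10.9, 11.98 and 11.2 CPM in knockdown DMSO, 13.4, 12.3 and 14.2 CPM in control temozolomide and 9.82, 9.89 and 11.8 CPM in knockdown temozolomide. The knockdown libraries lay below the controls under both treatments, and the test passed under temozolomide (log2 fold change -0.35 ± 0.10 (SE), edgeR adjusted p = 0.00595) and not under DMSO, -0.20 ± 0.10 (adjusted p = 0.113). The call was kept in all 24 other settings. LIG4 rose with knockdown under DMSO by 0.32 ± 0.11 (adjusted p = 0.0222), though its libraries overlapped. The LIG4 call was lost without control DMSO 1 or 3 or knockdown DMSO 1 (0.0920 to 0.135), in the unfiltered FPKM fit and with the GC correction. DCLRE1C, the hairpin-opening nuclease Artemis, was called in 0 of the 4 comparisons.

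In the Fanconi pathway, the helicase BRIP1 rose and the core subunit FANCE fell with knockdown, and FANCD2 was called in 0 of the 4 comparisons. BRIP1 was at 58.4, 53.9 and 59.8 CPM in control DMSO and 67.6, 67.8 and 73.0 CPM in knockdown DMSO. It was at 65.5, 66.4 and 69.5 CPM in control temozolomide and 71.1, 76.7 and 75.9 CPM in knockdown temozolomide. Control DMSO held the 3 lowest libraries, and the knockdown libraries were above the controls under each treatment. BRIP1 rose with knockdown under DMSO (log2 fold change 0.28 ± 0.05 (SE), edgeR adjusted p = 1.5e-04), under temozolomide by 0.15 ± 0.05 (adjusted p = 0.0141), and with the drug in control cells by 0.22 ± 0.05 (adjusted p = 0.00209). The first call was kept in all 24 other settings. The second was lost without control temozolomide 1 or knockdown temozolomide 2 (0.0631 and 0.0736). The drug call was lost with the GC correction.

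FANCE, which joins the core complex to its substrate, was at 17.8, 17.8 and 20.1 CPM in control DMSO and 12.4, 12.8 and 15.6 CPM in knockdown DMSO. It was at 18.7, 16.8 and 17.0 CPM in control temozolomide and 15.8, 16.1 and 14.1 CPM in knockdown temozolomide. The knockdown libraries lay below the controls under both treatments, and the fall passed the test under DMSO (log2 fold change -0.44 ± 0.10 (SE), edgeR adjusted p = 8.3e-04), with -0.19 ± 0.09 (adjusted p = 0.102) under temozolomide. The call was kept in all 24 other settings. FANCG, another core subunit, was at 44.4, 43.9 and 49.5 CPM in control DMSO, 38.7, 39.2 and 42.5 CPM in knockdown DMSO, 48.5, 50.9 and 47.2 CPM in control temozolomide and 50.9, 48.2 and 44.9 CPM in knockdown temozolomide. Its untreated knockdown libraries were the lowest of the 12, and it fell with knockdown under DMSO (log2 fold change -0.19 ± 0.06 (SE), edgeR adjusted p = 0.0138) and rose with the drug in knockdown cells by 0.26 ± 0.06 (adjusted p = 0.00393). The first call was lost without control DMSO 3 or knockdown DMSO 1 or 2 (0.0551 to 0.114), in the unfiltered FPKM fit, with the GC correction and with library totals alone. The second was kept in all 24 other settings.

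FANCB, also of the core, was at 22.3, 22.0 and 23.6 CPM in control DMSO, 25.8, 25.8 and 27.1 CPM in knockdown DMSO, 25.3, 27.7 and 29.4 CPM in control temozolomide and 27.1, 27.6 and 28.6 CPM in knockdown temozolomide. Control DMSO was the low group, and FANCB rose with the drug in control cells (log2 fold change 0.27 ± 0.07 (SE), edgeR adjusted p = 0.00473) and with knockdown under DMSO by 0.21 ± 0.07 (adjusted p = 0.0168). Its call for the drug was lost with the GC correction. The knockdown call was lost without control DMSO 2 or knockdown DMSO 3 (0.0521 and 0.0718), with the GC correction and in DESeq2. FANCA rose with knockdown under temozolomide by 0.19 ± 0.05 (adjusted p = 0.00853), FANCC fell with the drug in control cells by 0.24 ± 0.08 (adjusted p = 0.0226) on the log2 scale, and FANCM, the helicase-like anchor of the core, rose with the drug by 0.24 ± 0.08 (adjusted p = 0.0408) in control and 0.25 ± 0.08 (adjusted p = 0.0389) in knockdown cells. The FANCA call was lost in the unfiltered FPKM fit. The FANCC call was lost without control DMSO 2 or 3 or control temozolomide 1 or 3 (0.0653 to 0.138), in the FPKM fits and with library totals alone. The FANCM call in control cells was lost without control DMSO 2 or 3 or control temozolomide 2 or 3 (0.102 to 0.161), in the FPKM fits, with the GC correction, in DESeq2 and in a fit of the compared groups alone. That in knockdown cells was lost without knockdown DMSO 1, 2 or 3 or knockdown temozolomide 2 or 3 (0.0750 to 0.124), in the FPKM fits and in DESeq2. FANCL, the core ligase, and FANCF were called in 0 of the 4 comparisons, and FANCF was at 0.847 to 2.80 CPM.

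FANCD2, the clamp subunit whose ubiquitination marks the active pathway, was at 134, 144 and 136 CPM in control DMSO, 129.9, 127 and 134 CPM in knockdown DMSO, 133, 142 and 133 CPM in control temozolomide and 136, 137 and 137 CPM in knockdown temozolomide. Its groups lay close together, and its log2 fold changes were -0.08 ± 0.04 (adjusted p = 0.0972) and 0.01 ± 0.04 (adjusted p = 0.897) with knockdown and -0.02 ± 0.04 (adjusted p = 0.738) and 0.07 ± 0.04 (adjusted p = 0.218) with the drug. FANCI, its partner, rose with the drug by 0.10 ± 0.03 (adjusted p = 0.0357) in control and 0.11 ± 0.03 (adjusted p = 0.0229) in knockdown cells. The FANCI call in control cells was lost without control DMSO 1 or 3 or control temozolomide 1, 2 or 3 (0.0611 to 0.152), with the GC correction, in DESeq2 and in a fit of the compared groups alone. The FANCI call in knockdown cells was lost without knockdown DMSO 1 or 2 or knockdown temozolomide 2 (0.0615 to 0.128), in DESeq2 and without the low-count filter. FANCI shares exonic bases with POLG on the other strand.

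The crosslink nucleases work in pairs, and under DMSO the partners of both pairs had called changes of opposite sign with knockdown. Of these calls only that of MUS81 was kept in all 24 other settings. Those of EME1, ERCC4 and ERCC1 were lost in DESeq2, among other settings. MUS81, EME1, ERCC4 and ERCC1 are all among the members listed above as sharing exonic bases with another gene. MUS81, the catalytic subunit of one, was at 26.5, 28.0 and 29.7 CPM in control DMSO and 33.3, 32.9 and 34.5 CPM in knockdown DMSO. It was at 25.3, 25.5 and 23.3 CPM in control temozolomide and 29.8, 29.4 and 29.4 CPM in knockdown temozolomide. Knockdown libraries were above controls under each treatment, treated libraries were below their untreated partners, and MUS81 was called in all 4 comparisons. It rose with knockdown under DMSO (log2 fold change 0.26 ± 0.06 (SE), edgeR adjusted p = 0.00167) and under temozolomide by 0.26 ± 0.06 (adjusted p = 0.00192), and its drug changes were -0.18 ± 0.06 (adjusted p = 0.0310) in control and -0.19 ± 0.06 (adjusted p = 0.0292) in knockdown cells. Both knockdown calls were kept in all 24 other settings. The drug call in control cells was lost without control DMSO 2 or 3 or control temozolomide 3 (0.0646 to 0.167), in the FPKM fits, with the GC correction, with library totals alone, in DESeq2, without the low-count filter and in a fit of the compared groups alone. That in knockdown cells was lost without knockdown DMSO 1 or 3 or knockdown temozolomide 1, 2 or 3 (0.0559 to 0.102), in the FPKM fits, with library totals alone and in DESeq2. Its exons share bases with CFL1 on the other strand. EME1, its partner, fell with knockdown under DMSO by 0.20 ± 0.07 (adjusted p = 0.0224) on the log2 scale, with -0.14 ± 0.07 (adjusted p = 0.101) under temozolomide. The EME1 call was lost without control DMSO 3 or knockdown DMSO 2 or 3 (0.0759 to 0.136), in the FPKM fits, with library totals alone and in DESeq2.

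ERCC4, the catalytic subunit of the other nuclease, was at 36.1, 33.9 and 32.4 CPM in control DMSO, 35.4, 38.8 and 40.6 CPM in knockdown DMSO, 33.5, 31.8 and 35.2 CPM in control temozolomide and 38.3, 42.7 and 38.4 CPM in knockdown temozolomide. The treated knockdown libraries were all above the treated controls (log2 fold change 0.25 ± 0.06 (SE), edgeR adjusted p = 0.00303), and under DMSO the groups overlapped, with 0.17 ± 0.07 (adjusted p = 0.0421). The call under temozolomide was lost in the unfiltered FPKM fit. That under DMSO was lost without control DMSO 2 or 3 or knockdown DMSO 2 or 3 (0.0768 to 0.195). It was also lost in the FPKM fits, with the replicate number as a block, with the GC correction and in DESeq2. ERCC1, its partner, was at 71.1, 66.2 and 69.0 CPM in control DMSO, 66.4, 58.2 and 62.6 CPM in knockdown DMSO, 62.9, 60.7 and 60.5 CPM in control temozolomide and 60.8, 58.2 and 61.5 CPM in knockdown temozolomide. Control DMSO had the highest mean. ERCC1 fell with the drug in control cells (log2 fold change -0.16 ± 0.05 (SE), edgeR adjusted p = 0.0158). With knockdown under DMSO it fell by 0.14 ± 0.05 on the log2 scale (edgeR adjusted p = 0.0256), though those libraries overlapped. The drug call was lost without control DMSO 1 or control temozolomide 2 or 3 (0.0544 to 0.0900), with the GC correction and with library totals alone. The knockdown call was lost without control DMSO 1 or 3 or knockdown DMSO 2 or 3 (0.0619 to 0.169), in the FPKM fits, with the GC correction, with library totals alone and in DESeq2.

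SLX4, the scaffold that holds both nucleases, was at 28.2, 30.6 and 30.4 CPM in control DMSO, 26.9, 28.1 and 29.1 CPM in knockdown DMSO, 32.0, 30.1 and 27.3 CPM in control temozolomide and 34.8, 34.9 and 34.7 CPM in knockdown temozolomide. The treated knockdown libraries were the 3 highest and lay close to each other, while the other 3 groups overlapped. SLX4 rose with the drug in knockdown cells (log2 fold change 0.31 ± 0.06 (SE), edgeR adjusted p = 0.00131) and with knockdown under temozolomide by 0.22 ± 0.06 (adjusted p = 0.00721), and its other changes were -0.08 ± 0.07 (adjusted p = 0.319) with knockdown under DMSO and 0.01 ± 0.06 (adjusted p = 0.950) with the drug in control cells. Its call for the drug was kept in all 24 other settings. The knockdown call was lost without control temozolomide 3 (0.0538).

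Among checkpoint and signalling genes, knockdown raised CHEK1 and lowered the ubiquitin ligase RNF168 under both treatments. CHEK1, the kinase that ATR activates to halt the cycle, was at 111, 109 and 103 CPM in control DMSO and 119.8, 116 and 119 CPM in knockdown DMSO. It was at 107, 103 and 108 CPM in control temozolomide and 119, 117 and 120.3 CPM in knockdown temozolomide. All 6 knockdown libraries were above all 6 control libraries, by 0.14 ± 0.04 (adjusted p = 0.00544) under DMSO and 0.16 ± 0.04 (adjusted p = 0.00115) under temozolomide, and the drug's changes were -0.02 ± 0.04 (adjusted p = 0.687) in control and 0.00 ± 0.04 (adjusted p = 0.965) in knockdown cells. The call under DMSO was lost with the GC correction. That under temozolomide was kept in all 24 other settings.

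RNF168, which marks chromatin beside breaks with ubiquitin, was at 60.3, 63.6 and 57.7 CPM in control DMSO and 53.0, 48.6 and 51.8 CPM in knockdown DMSO, and at 63.0, 62.7 and 60.8 CPM in control temozolomide and 50.7, 48.4 and 51.9 CPM in knockdown temozolomide. All 6 knockdown libraries lay below all 6 control libraries. RNF168 fell with knockdown under temozolomide (log2 fold change -0.31 ± 0.05 (SE), edgeR adjusted p = 2.9e-05) and under DMSO by 0.24 ± 0.05 (adjusted p = 4.9e-04) on the log2 scale. Both calls were lost in the FPKM fits. RNF8, the ligase that acts before it, was at 35.3, 34.2 and 34.1 CPM in control DMSO, 33.0, 29.6 and 31.7 CPM in knockdown DMSO, 34.1, 36.7 and 41.3 CPM in control temozolomide and 31.0, 31.4 and 28.8 CPM in knockdown temozolomide. Knockdown libraries were below controls under each treatment, and the fall passed the test under temozolomide (log2 fold change -0.29 ± 0.07 (SE), edgeR adjusted p = 0.00159), with -0.14 ± 0.07 (adjusted p = 0.122) under DMSO. The call was kept in all 24 other settings.

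TP53BP1, which reads the RNF168 mark and limits resection, was at 65.8, 70.4 and 66.3 CPM in control DMSO, 65.3, 65.3 and 69.0 CPM in knockdown DMSO, 69.7, 71.4 and 75.9 CPM in control temozolomide and 72.2, 79.1 and 74.7 CPM in knockdown temozolomide. It rose with the drug in knockdown cells, where the groups did not overlap (log2 fold change 0.18 ± 0.05 (SE), edgeR adjusted p = 0.0102), and its change in control cells was 0.10 ± 0.05 (adjusted p = 0.139). The call was lost without knockdown DMSO 2 or knockdown temozolomide 2 (0.0552 and 0.0783). ATM, the kinase that answers double-strand breaks, was at 178, 188 and 173 CPM in control DMSO, 189, 187 and 202 CPM in knockdown DMSO, 187, 191 and 202 CPM in control temozolomide and 196, 209.6 and 209.8 CPM in knockdown temozolomide. Its compared groups overlapped in each of the 4 comparisons, and its log2 fold changes, 0.10 ± 0.04 (adjusted p = 0.0688), 0.08 ± 0.04 (adjusted p = 0.120), 0.11 ± 0.04 (adjusted p = 0.0712) and 0.09 ± 0.04 (adjusted p = 0.140) in the order of the comparisons above, did not pass the test. ATR, its partner ATRIP, the ATR activator TOPBP1, CHEK2 and the adaptor MDC1 were likewise called in 0 of the 4 comparisons, with log2 fold changes from -0.20 to 0.12.

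Whether the response to temozolomide differed between knockdown and control cells was tested as the difference of the drug's log2 fold changes, knockdown minus control. Of the 54 members 0 were called in edgeR, where 1.05% of all tested genes were. At an unadjusted p under 0.05 there were 6, and the smallest adjusted p among the members was 0.0881. SLX4 had a difference of 0.30 ± 0.09 (adjusted p = 0.0881), NHEJ1 of 0.30 ± 0.11 (adjusted p = 0.181) and XRCC3 of 0.24 ± 0.10 (adjusted p = 0.212), and NBN of -0.17 ± 0.05 (adjusted p = 0.0916), RAD51AP1 of -0.18 ± 0.05 (adjusted p = 0.0980) and RAD51B of -0.59 ± 0.24 (adjusted p = 0.202). Without control DMSO 2 the NBN difference passed the test (adjusted p = 0.0499), as it did without the low-count filter (0.0454) and in DESeq2 (0.0331), and without control temozolomide 1 that of SLX4 did (0.0389). For all other members a call of the drug in one background and not in the other was therefore not accompanied by a called difference. The members' median difference was 0.01, beside 0.01 over all tested genes.

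The members' changes followed GC content in the comparisons that use control DMSO, the group with the highest tilt. The members' longest transcripts held 36.1 to 63.8% GC, with a median of 42.8%. The 13 members that rose with knockdown under DMSO had a median of 39.9% and the 8 that fell 50.5%, and the 11 that rose with the drug in control cells had 37.5% and the 8 that fell 50.6%. Across the 54 genes the log2 fold change went with GC content at r = -0.40 for knockdown under DMSO, -0.56 for the drug in control cells and 0.57 for the difference of responses, and at 0.10 and 0.04 for knockdown under temozolomide and for the drug in knockdown cells. After a correction for GC content in each library these values were -0.09, -0.15, 0.10, -0.01 and -0.04. The correction fits GC content in each library over all genes, so a weaker trend is built into it. Spearman rho, in the same order, was -0.46, -0.62, 0.65, -0.04 and 0.01 before it. The values after it were -0.19, -0.19, 0.15, -0.17 and -0.05. With that correction the drug in control cells raised 2 members and lowered 6, in place of 11 and 8, where all genes in the same fit had 1139 higher and 1999 lower of 12782. Knockdown under DMSO then gave 8 higher and 15 lower members, 42.6% of the 54 against 43.2% of all genes (2606 higher and 2921 lower). Knockdown under temozolomide gave 35.2% against 44.4%. The part that GC content played in the single genes was not tested.

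**Figure D5:**
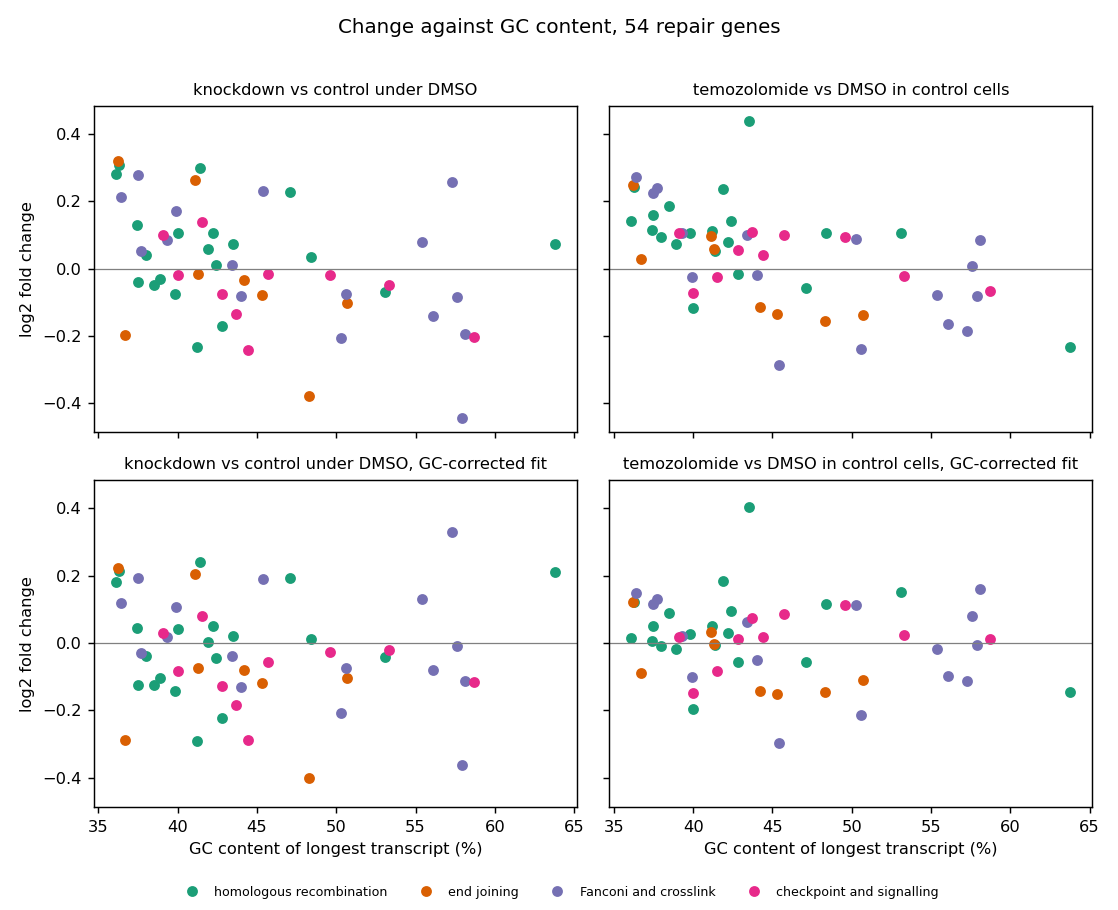
Log2 fold change of the 54 repair genes (points, coloured by class) against the GC content of the longest transcript, for knockdown under DMSO and for temozolomide in control cells, before (top) and after (bottom) the GC correction. The downward slope of the upper panels (Pearson r = -0.40 and -0.56) is weaker in the lower panels (r = -0.09 and -0.15, Spearman rho = -0.19 and -0.19). The correction removes a GC trend by design.

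A second list held 78 other genes of the same pathways, of which 76 were tested. Knockdown raised 14 and lowered 14 of these under DMSO and raised 10 and lowered 12 under temozolomide, while the drug raised 11 and lowered 5 in control cells and raised 7 and lowered 3 in knockdown cells; the difference of responses had 0 calls. The called share was 36.8% and 28.9% for knockdown and 21.1% and 13.2% for the drug. Each lay below the share of all tested genes (42.6%, 42.3%, 27.5% and 22.3%). For the genes named below, the calls under the other settings are not given. KAT5 and RNF169 share 1439 and 2184 exonic bases with a gene on the other strand. With the drug in control cells the named rises, FIGNL1, CLSPN and ETAA1, held 38.8%, 44.8% and 33.7% GC. The named falls, BABAM2, KAT5 and PARP1, held 49.4%, 58.6% and 49.6%, and the part of GC content was not tested. The largest rise was that of WEE1, the kinase that holds cells before mitosis, at 0.78 ± 0.07 under DMSO and 0.72 ± 0.07 under temozolomide on the log2 scale (edgeR adjusted p = 2.6e-08 and 6.8e-08). MCM8, a helicase of recombination, rose by 0.27 ± 0.04 (adjusted p = 2.8e-05) and 0.22 ± 0.04 (adjusted p = 2.1e-04). HUS1, part of the checkpoint clamp, rose by 0.41 ± 0.08 (adjusted p = 2.7e-04) under DMSO, and TOP3A, the topoisomerase that works with BLM, by 0.28 ± 0.04 (adjusted p = 2.9e-05) under temozolomide. NUCKS1, a chromatin protein of recombination, fell by 0.46 ± 0.04 (adjusted p = 2.9e-09) under DMSO and 0.64 ± 0.04 (adjusted p = 1.7e-11) under temozolomide on the log2 scale. TIMELESS, a fork-protection factor, and the ligase LIG1 fell under DMSO, by 0.26 ± 0.04 (adjusted p = 1.0e-05) and 0.31 ± 0.05 (adjusted p = 5.4e-05), and RPA3, of the single-strand binding complex, and SEM1, a BRCA2 partner, fell under temozolomide, by 0.44 ± 0.08 (adjusted p = 2.2e-04) and 0.40 ± 0.08 (adjusted p = 2.9e-04). With the drug in control cells FIGNL1, a filament remodeller, rose by 0.24 ± 0.06 (adjusted p = 0.00378), and the other genes named for the drug are BABAM2, of the BRCA1-A complex, at -0.29 ± 0.05 (adjusted p = 3.6e-04) in control and -0.26 ± 0.05 (adjusted p = 0.00173) in knockdown cells, and CLSPN, the mediator of CHEK1 activation, at 0.17 ± 0.04 (adjusted p = 0.00396) and 0.20 ± 0.04 (adjusted p = 0.00133). ETAA1, an ATR activator, rose in control cells by 0.22 ± 0.06 (adjusted p = 0.00527), and the acetyltransferase KAT5 and the break sensor PARP1 fell there by 0.28 ± 0.06 (adjusted p = 0.00121) and 0.12 ± 0.03 (adjusted p = 0.00729) on the log2 scale. In knockdown cells SHLD2, of the shieldin complex that protects ends, fell by 0.28 ± 0.04 (adjusted p = 7.6e-05) and RNF169 by 0.16 ± 0.05 (adjusted p = 0.0212), and TOP3A and RHNO1 rose by 0.16 ± 0.04 (adjusted p = 0.0125) and 0.13 ± 0.04 (adjusted p = 0.0229).

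Lists of cell-cycle genes had calls in the same comparisons. Of 40 G2/M and mitosis genes, knockdown raised 17 and lowered 3 under DMSO and raised 20 and lowered 2 under temozolomide, while the drug raised 17 and lowered 0 in control cells and raised 14 and lowered 1 in knockdown cells. Their medians were 0.08, 0.11, 0.11 and 0.11 on the log2 scale, beside member medians of -0.02, 0.01, 0.08 and 0.07. Of 45 G1/S and replication genes, 7 rose and 17 fell, 9 rose and 13 fell, 2 rose and 13 fell, and 9 rose and 6 fell, in the same order. The called share of the G2/M genes was 50%, 55%, 42.5% and 37.5% and that of the G1/S genes 53.3%, 48.9%, 33.3% and 33.3%, beside 42.6%, 42.3%, 27.5% and 22.3% of all tested genes. The share of cells in each phase was not measured, and its part in the members' changes was not tested.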

How the data were processed

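Total RNA was enriched for poly(A) RNA with oligo(dT) beads and made into libraries with a NEBNext Ultra kit, per the labels' protocols. The authors deposited a table of estimated counts per gene and a table of FPKM; the tools named in the submitters' processing notes are RSEM, HISAT2, StringTie 1.3.1, Bowtie2 2.2.8 and fastp 0.18.0. The build and gene models are not given in the sources used. The deposited counts were not whole in 10.7 to 12% of the genes of a library and were rounded. Genes were filtered with edgeR's filterByExpr, scaled by TMM factors and fitted in edgeR 4.0.16 (R 4.3.3) by the quasi-likelihood test on 4 group means over the 12 libraries, with Benjamini-Hochberg adjustment over the 12821 tested genes and calls at 0.05. The common coefficient of variation between libraries was 3.9%. The SE is the log2 fold change over the root of F. Replicates of a group did not hold identical values.

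Values in every library are given for up to 6 called members with the smallest p per direction and comparison, and for BRCA1, BRCA2, ATM, PRKDC, FANCD2 and CHEK1. Up to 3 other pathway genes per direction and comparison are named. The members and all gene lists were chosen with earlier results of these data known. Alternatives were DESeq2 1.42.0, scaling by library totals alone or by relative log expression factors, no low-count filter, a filter of 1 CPM in 3 libraries, the replicate number as a block, a correction of each library by a spline on GC content (5 degrees of freedom), both together, limma 3.58.1 on log2(FPKM + 1) or log2(FPKM + 0.1) with a filter of 1 FPKM in 3 libraries, log2(FPKM + 1) with no filter, a fit of the compared groups alone, and each library left out. GC content and exon overlaps came from GENCODE 29 (GRCh38) and promoters from RefSeq (GRCh38.p14).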

Additional observations from a re-analysis of the deposited data

How the results depend on the processing

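Of the values of called members under the other settings, 1386 of 1704 kept direction and call, 318 lost the call and 0 reversed. Of the 4682 values of members not called, 106 gained a call. The 15 falls with knockdown under DMSO after the GC correction held 6 of the main 8. The 21 rises with the drug in control cells under library totals alone held the main 11. The following counts moved by over 1.5 times, and for each the cause was not tested. For knockdown under DMSO, the GC correction gave 8 higher and 15 lower members in place of 13 and 8 (15 lower also with the replicate block added), library totals alone gave 4 lower, the filtered FPKM fits gave 3 lower with either pseudocount, and the unfiltered FPKM fit gave 7 higher and 2 lower. For knockdown under temozolomide (12 and 4), the unfiltered FPKM fit gave 7 higher, and all 3 FPKM fits gave 2 lower. For temozolomide in control cells (11 and 8), library totals alone gave 21 higher and 0 lower, the GC correction gave 2 higher with or without the block, and each FPKM fit gave 7 higher and 1 lower. For temozolomide in knockdown cells (9 and 6), library totals alone gave 19 higher and 0 lower, DESeq2 gave 5 higher, and the FPKM fits gave 0 lower. For the difference of responses (0 and 0), DESeq2, which gave an adjusted p for 24 members, and the fit without the low-count filter each gave 1 lower. Of all genes, 8.26% and 3.19% were called there. The share of all genes called differed between settings too. In the filtered log2(FPKM + 1) fit it was 35.6%, 36.3%, 23.7% and 18.4% in the order above, beside 22.6%, 26.4%, 15.1% and 18.9% of the members. With a pseudocount of 0.1 it was 35.6%, 36.0%, 23.7% and 18.2%, beside 22.6%, 26.4%, 15.1% and 17.0%. Without the filter it was 23.6%, 23.8%, 13.9% and 10.9%, beside 16.7%, 16.7%, 14.8% and 14.8%. In DESeq2 the drug in knockdown cells had 17.6% of all genes called and 16.7% of the members. With the GC correction and the block, knockdown under DMSO had 43.7% and 44.4%. The drug in control cells had 25.5% and 14.8% there.

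With 1 library left out, the higher and lower counts ran from 9 to 13 and 5 to 9 for knockdown under DMSO, from 9 to 12 and 3 to 5 for knockdown under temozolomide, from 6 to 12 and 4 to 8 for the drug in control cells, from 4 to 10 and 1 to 6 for the drug in knockdown cells, and from 0 to 1 and 0 to 1 for the difference. In the comparisons of 2 groups, leaving out a library of a compared group also lowered the share of all genes called. Whether the replicate numbers pair the libraries was not settled: in 18 pairs of same-numbered libraries the deviations from the group means had correlations of -0.077 to 0.136, and the best match had the same number for 6 of 12. With the replicate block the higher and lower counts were 12 and 8, 12 and 5, 11 and 8, 9 and 6, and 0 and 0 in the same order. The share of all genes called with the block was 43.2%, 42.8%, 28.6%, 23.2% and 1.73%. Without it the share was 42.6%, 42.3%, 27.5%, 22.3% and 1.05%.

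In the FPKM fits 53 members passed the filter. Low counts limit FANCF and RAD51B, whose fold changes have the widest SE.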
